A study of Homo sapiens with 15 samples.

Results

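The 37 genes of the human mitochondrial chromosome were followed across 15 RNA-seq libraries of HT-1080, a human fibrosarcoma cell line. They were taken from a count table of 60670 genes as every row whose identifier maps to that chromosome: 13 protein-coding genes, 2 rRNA genes and 22 tRNA genes. All 37 were found, and 32 of them had enough counts to be tested. The 15 libraries fall into 5 groups of 3. Cycling cells received vehicle (DMSO) for 6 h. Cells made senescent by expressing a dominant-negative form of TRF2, the telomere-binding protein encoded by TERF2, for 6 days received vehicle or 1 µM GNF-7, a tyrosine kinase inhibitor, for 6 h or for 24 h. Cycling cells with GNF-7 and cycling cells at 24 h were not analysed here. All groups come from 1 cell line, and cycling and senescent cells differ in both the TRF2 mutant and the senescent state, which cannot be told apart. Whether the cycling cells carried the construct is not given in the sources used here. The labels call the libraries biological replicates without saying that they came from separate cultures, so p-values measure the spread between these samples.

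Mitochondrial DNA is a circle transcribed from both strands into long RNAs that cover many genes at once. The tRNA genes sit between most of the other genes, and cutting the tRNAs out releases the mRNAs and rRNAs, which then receive poly(A) tails. In several mRNAs the tail itself completes the stop codon. MT-ND6, a complex I subunit, is the only mRNA read from the light-strand side, and it is known not to carry the usual poly(A) tail. The 13 mRNAs encode core subunits of respiratory complexes I, III, IV and V, while all other subunits, and every protein that copies, transcribes or processes mitochondrial DNA, come from nuclear genes. Libraries came from a strand-specific mRNA kit, which captures RNA through poly(A), so a count reflects both how much of an RNA there was and how well it was captured.

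The annotated 3′ ends of the mRNA genes show how their reading frames end, and 9 of the 13 are printed. These are all those with an incomplete stop codon, and MT-CO1, MT-ND5 and MT-ND6. They are the last 30 annotated bases, read 5′ to 3′ from the GENCODE transcripts on GRCh38, with the bases of the stop codon in capitals. In 6 mRNAs only T or TA of the stop codon is encoded, and in the other 7 the codon is complete.
MT-ND1, chrM:4233-4262, plus strand: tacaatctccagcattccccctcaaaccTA
MT-ND2, chrM:5482-5511, plus strand: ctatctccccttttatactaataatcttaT
MT-CO3, chrM:9961-9990, plus strand: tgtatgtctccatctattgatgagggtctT
MT-ND3, chrM:10375-10404, plus strand: gactacaaaaaggattagactgaaccgaaT
MT-ND4, chrM:12108-12137, plus strand: accccgacatcattaccgggttttcctctT
MT-CYB, chrM:15858-15887, plus strand: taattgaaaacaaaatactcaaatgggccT
MT-CO1, chrM:7416-7445, plus strand: ttcgaagaacccgtatacataaaatctAGA
MT-ND5, chrM:14119-14148, plus strand: ctcatcctaaccctactcctaatcacaTAA
MT-ND6, chrM:14149-14178, minus strand: attgtaattgagattgctcgggggaatAGG
The annotated ends of MT-ND5 and MT-ND6 abut on opposite strands, at 14148 and 14149. RNA read through MT-ND5 on the plus strand therefore lies antisense to MT-ND6, and whether the counting separated the strands is not given in the sources used here.

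A pair of mRNAs each carry 2 overlapping reading frames, so their 2 genes are read from the same RNA. The first 46 bases of MT-ATP6 are the last 46 of MT-ATP8, and they are shown with the MT-ATP6 start codon in capitals.
MT-ATP8 and MT-ATP6, chrM:8527-8572, plus strand: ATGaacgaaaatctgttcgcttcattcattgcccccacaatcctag
MT-ND4L and MT-ND4 overlap by 7 bases, at chrM:10760-10766. How reads in such overlaps were assigned is not given in the sources used here. The ratio of MT-ATP6 to MT-ATP8 counts stayed between 3.60 and 3.71 as group means, and that of MT-ND4 to MT-ND4L went from 6.55 ± 0.214 (SD, n = 3) in cycling cells to 7.53 ± 0.0239 in senescent vehicle cells at 6 h. At 24 h this ratio was 8.37 ± 0.136 with vehicle and 7.98 ± 0.0651 with GNF-7. The genes of each pair thus moved together to within these ratios.

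Library totals ran from 25991007 to 32323393 counts, of which 1144478 to 7543537 were mitochondrial, so counting error was small for every mRNA and rRNA and larger for the tRNAs. Levels are CPM, a gene's counts as a rate of the library's counts, scaled by edgeR's TMM factors. TERF2 rose from 58.2 CPM in cycling to 287 CPM in senescent vehicle cells at 6 h, in the direction of the labels but without separating the mutant from the cell's own gene. It was 222 CPM with GNF-7 at 6 h, and 220.0 CPM with vehicle and 132 CPM with GNF-7 at 24 h. Its level was thus lower with GNF-7 than with vehicle at each time, and its part in the results was not tested. The proliferation gene MKI67 went from 509 to 149 CPM, and the cell cycle inhibitor CDKN1A from 186 to 501 CPM. Of 6 mesenchymal markers, VIM, CDH2, CD44, MMP14 and FN1 were expressed in every library and THY1 was at 0 in all. Of 5 epithelial markers, EPCAM, CDH1 and KRT19 stayed at or below 0.564 CPM and KRT8 and KRT18 ranged from 144 to 459.7 CPM. The summed epithelial level, nearly all KRT8 and KRT18, ran from 743 to 759.5 CPM in the cycling libraries, from 348 to 408 in senescent libraries at 6 h, from 452 to 473 with vehicle and from 291 to 299.6 with GNF-7 at 24 h, and its part in the results was not tested. Leukocyte and endothelial markers, 7 genes, stayed at or below 1.06 CPM each. All pairs of libraries within a group differed by more than sampling noise.

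Mitochondrial genes took a growing part of the library from group to group. They made up 5.01, 3.75 and 4.20% of counts in the 3 cycling libraries and 11.2, 12.4 and 11.7% in senescent vehicle cells at 6 h. With GNF-7 at 6 h the share was 13.2, 15.3 and 13.8%. At 24 h it was 15.1, 18.7 and 17.0% with vehicle and 22.6, 24.1 and 23.2% with GNF-7. In all 4 pairs compared the groups were apart, and the exact two-sided permutation p was 0.1 in each, the smallest that 3 libraries against 3 allow. As group means the share was 4.32 ± 0.637% (SD, n = 3), 11.7 ± 0.638%, 14.1 ± 1.08%, 16.9 ± 1.80% and 23.3 ± 0.767%. In bulk samples, a change in the number of cells and a change in RNA per cell cannot be told apart, nor can more mitochondrial RNA and less nuclear-encoded RNA.

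**Figure D1:**
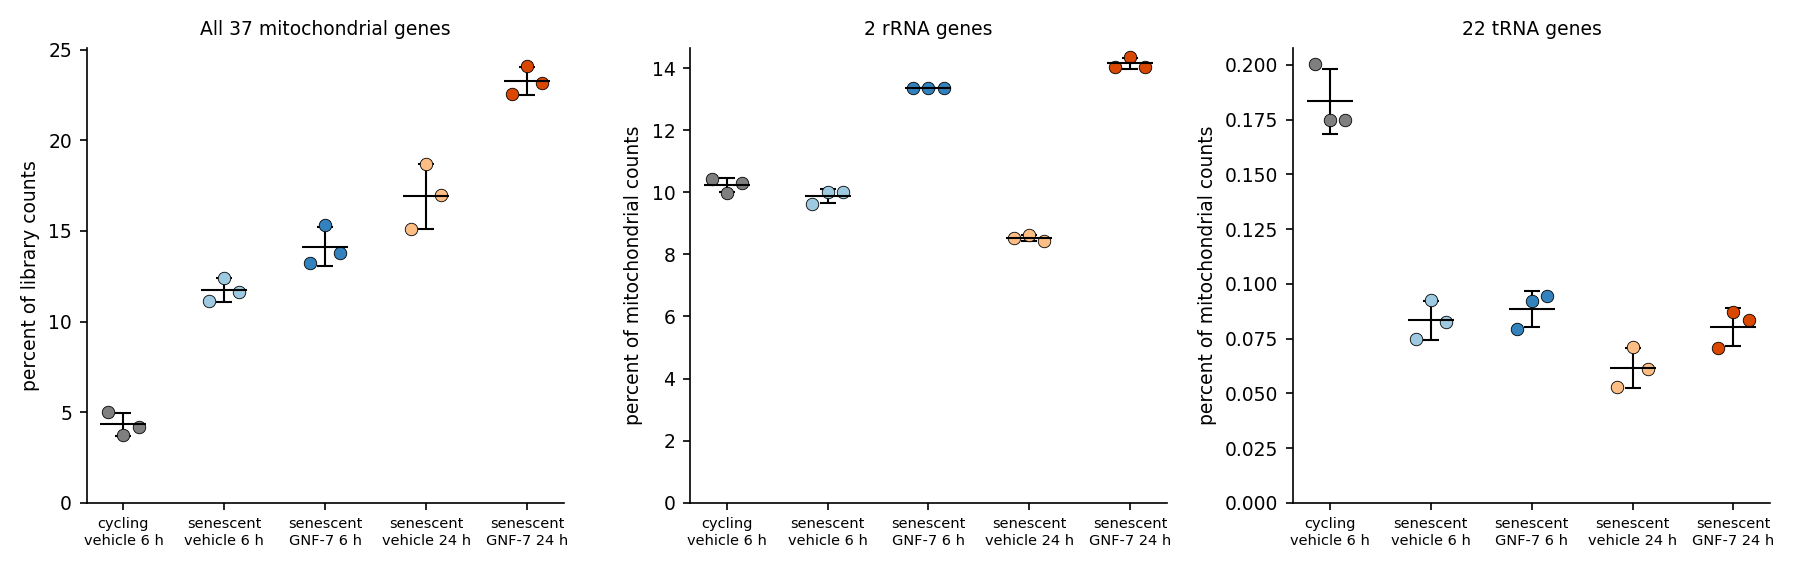
Share of library counts in the 37 mitochondrial genes (left, percent of all counts), and shares of the 2 rRNA genes (middle) and the 22 tRNA genes (right) within the mitochondrial counts, by group. Points are libraries, and bars are the mean and SD of 3. The left panel rises from 4.32% in cycling cells to 23.3% with GNF-7 at 24 h, while the middle panel is high in both GNF-7 groups.

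Within the mitochondrial counts, mRNAs made up 89.6% in cycling cells, 90.0% and 91.4% in senescent vehicle cells at 6 h and 24 h, and 86.6% and 85.8% with GNF-7. The rRNAs held 10.2%, 9.88% and 8.52% in the vehicle groups and 13.4% and 14.1% in the GNF-7 groups. The tRNAs held under 1% everywhere, from 0.0617% to 0.183%. The rise in rRNA share was thus seen at both times of GNF-7 exposure and not between cycling and senescent vehicle cells, whose rRNA shares overlapped (exact permutation p = 0.3). That sum joins rRNAs that moved in opposite directions. Between cycling and senescent vehicle cells at 6 h, the log2 ratio to the mRNAs moved by 0.122 for MT-RNR2 and by -1.02 for MT-RNR1. The groups did not overlap in either (exact permutation p = 0.1 each).

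Senescent against cycling cells, both in vehicle at 6 h, compares these groups without the drug. It does not separate the senescent state from the TRF2 mutant, and "in senescence" is used only as a name for this comparison. The level of 14 of the 32 tested mitochondrial genes was higher and that of 8 lower (edgeR quasi-likelihood test, adjusted p under 0.05 over 18563 genes). Across all genes tested, 70.0% passed in this comparison, 35.6% higher and 34.4% lower. Of the 13 mRNAs, 10 rose, MT-ND6 fell, and MT-ND2 and MT-ND3 did not pass. MT-RNR2 rose, MT-RNR1 did not pass, and the 17 tested tRNAs split into 3 higher and 7 lower. The median log2 fold change was 0.97 over the 13 mRNAs and 0.06 over all genes tested.

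Among the mRNAs, the largest rises were those of MT-ND5 and MT-CO1. MT-ND5, a proton-pumping subunit of complex I, stood at 1544, 1166 and 1315 CPM in the cycling libraries and at 5574, 6161 and 5861 CPM in the senescent ones. Every senescent library was above every cycling library, with a log2 fold change of 2.13 (edgeR, SE 0.11, adjusted p = 9.53e-09). MT-CO1, the catalytic subunit of complex IV, went from 6884, 5419 and 6141 to 23362, 25610.0 and 23929.9 CPM. Those groups were again far apart, and the log2 fold change was 1.98 (edgeR, SE 0.10, adjusted p = 6.01e-09). MT-CO2, which receives electrons from cytochrome c, rose by 1.68 ± 0.11 (SE), MT-ND4 by 1.67 ± 0.11, MT-CYB, the complex III subunit, by 1.52 ± 0.11 and MT-ND4L by 1.47 ± 0.11, all on the log2 scale with edgeR adjusted p of 2.26e-07 or less.

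A second set of mRNAs rose less. MT-ND1, another complex I subunit, had a log2 fold change of 0.97 (edgeR, SE 0.13, adjusted p = 3.46e-05). The ATP synthase subunits MT-ATP8 and MT-ATP6, which share an RNA, gave 0.83 (edgeR adjusted p = 0.000163) and 0.83 (edgeR adjusted p = 4.05e-05). MT-CO3, the third mitochondrial subunit of complex IV, gave 0.65 (edgeR adjusted p = 0.000326), well below MT-CO1 and MT-CO2 of the same complex. MT-ND2 was at 5046, 3756 and 4193 CPM in cycling and 4753, 5191 and 4969 CPM in senescent libraries, which overlap, with 0.20 (edgeR adjusted p = 0.135). MT-ND3 gave 0.29 (edgeR adjusted p = 0.0722).

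MT-ND6 went the other way. It stood at 1088, 735 and 747 CPM in the 3 cycling libraries and at 457, 439.6 and 503 CPM in the senescent ones, so no senescent library reached the lowest cycling one. The log2 fold change was -0.88 (edgeR, SE 0.15, adjusted p = 0.000276). As a share of the counts of the 13 mRNAs, MT-ND6 went from 2.32, 2.08 and 1.88% to 0.472, 0.412 and 0.502%, and its log2 ratio to the 12 heavy-strand mRNAs moved by -2.20 (exact permutation p = 0.1, 3 against 3).

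The 2 rRNAs of the mitochondrial ribosome separated. MT-RNR2, of the large subunit, was at 4284, 3099.9 and 3597 CPM in cycling and 9181, 10606 and 9953 CPM in senescent libraries, a log2 fold change of 1.44 (edgeR, SE 0.12, adjusted p = 8.56e-07). MT-RNR1, of the small subunit, was at 1174, 829 and 968 and 1142, 1282 and 1206 CPM. Its groups overlapped, and its log2 fold change of 0.29 (edgeR adjusted p = 0.0582) did not pass. The ratio of MT-RNR2 to MT-RNR1 counts, chosen after its values were seen, was 3.65, 3.74 and 3.71 in the cycling and 8.04, 8.27 and 8.25 in the senescent libraries. MT-RNR1 precedes MT-RNR2 on the chromosome, with the tRNA gene MT-TV between them.

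The 3 longer genes that did not pass in senescence, MT-RNR1, MT-ND2 and MT-ND3, lay near the threshold. Their calls changed with the libraries kept and with the settings. Cycling replicate 1 had the highest mitochondrial share of the cycling libraries. Without that library all 3 were called higher by edgeR (adjusted p = 0.00698, 0.0174 and 0.00392). All 3 were also called with total counts as the scale (0.01, 0.0194 and 0.0138) and with a filter at a mean of 5 CPM (0.00882, 0.017 and 0.0121), MT-RNR1 and MT-ND3 with DESeq2 (0.0294 and 0.0428), and MT-RNR1 with scaling without the mitochondrial genes (0.0484).

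The shares within the mitochondrial counts show the same reordering without the rise of the total. A second edgeR fit used the mitochondrial total of each library as its size, and 5 of the 32 genes had a higher and 23 a lower share in senescent cells. In that fit 78.2% of all genes tested passed, 6.51% higher and 71.7% lower, since a rise of the total lowers the share of every nuclear gene. MT-CO1 held 13.1, 13.8 and 13.9% of the mitochondrial counts in cycling and 21.8, 21.6 and 21.5% in senescent libraries, a log2 fold change of 0.67 (edgeR, SE 0.14, adjusted p = 3.02e-06), and the fit's SE was wider than the scatter of these shares between libraries. MT-ND5 went from 2.96 ± 0.00952% to 5.21 ± 0.0363% (SD, n = 3), MT-CO2 from 9.62 ± 0.0997% to 12.4 ± 0.0272% and MT-ND4 from 11.5 ± 0.201% to 14.8 ± 0.0495%. These 4 mRNAs and the tRNA MT-TT are the 5 with a higher share.

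The mRNAs that lost share include MT-ND2 and MT-ND3, which lost more than any other mRNA except MT-ND6. MT-ND2 went from 9.64, 9.53 and 9.46% to 4.43, 4.37 and 4.46% of the mitochondrial counts, a log2 fold change of -1.11 (edgeR, SE 0.14, adjusted p = 2.87e-15). MT-ND3 went from 2.58 ± 0.142% to 1.27 ± 0.00323% and MT-CO3 from 13.4 ± 0.0953% to 8.47 ± 0.0941% (SD, n = 3). MT-ATP6 gave -0.48, MT-ATP8 -0.47 and MT-ND1 -0.34 on the log2 scale. MT-RNR1 also lost share, at -1.02, and MT-ND6, at -2.17. Of the 6 mRNAs with an incomplete stop codon, MT-ND1, MT-ND2, MT-CO3 and MT-ND3 had a lower share, MT-ND4 a higher one and MT-CYB did not pass; of the 7 with a complete codon, MT-CO1, MT-CO2 and MT-ND5 had a higher share, MT-ATP8, MT-ATP6 and MT-ND6 a lower one and MT-ND4L did not pass. The call of MT-ND1 was lost without replicate 3 of senescent vehicle at 6 h (adjusted p = 0.0565).

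**Figure D2:**
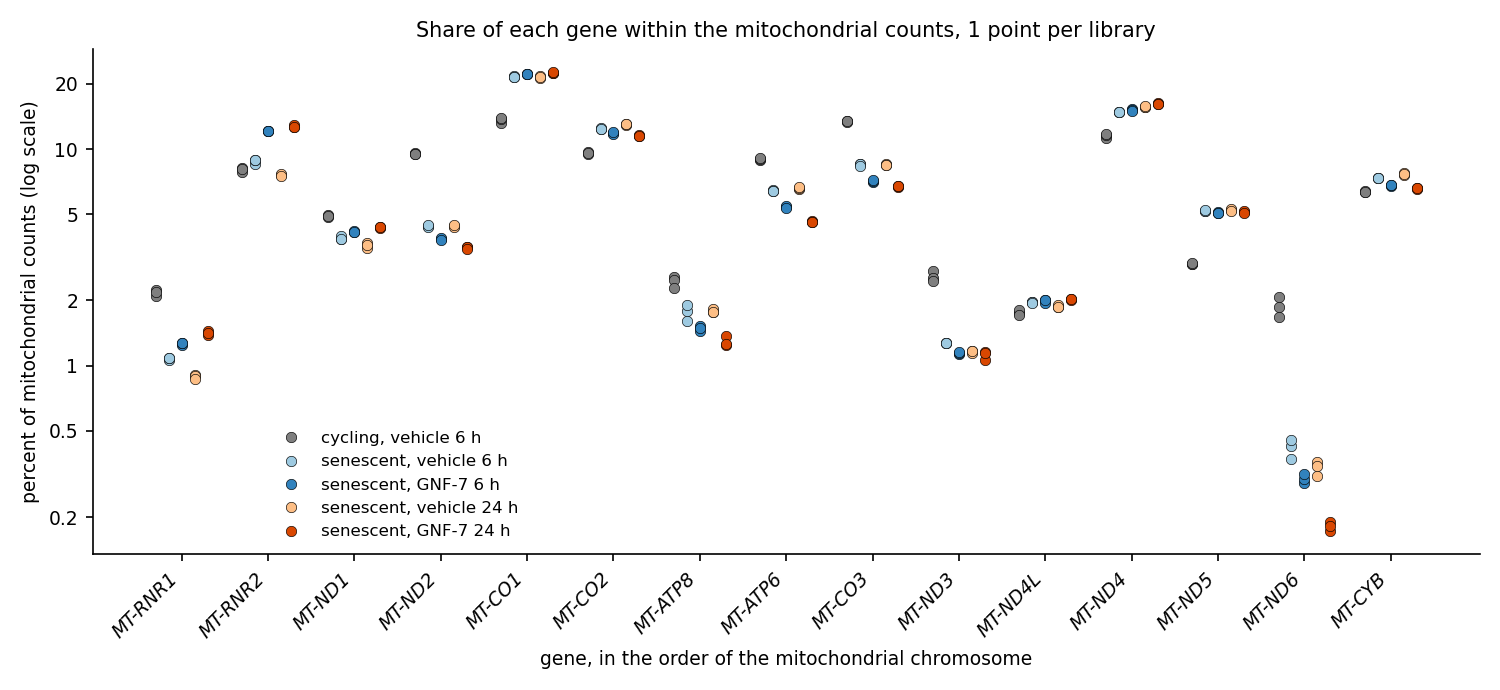
Share of each rRNA and mRNA within the mitochondrial counts (percent, log scale), with genes in chromosome order and 1 point per library, coloured by group. MT-ND6 falls from 1.88% in cycling cells to 0.181% with GNF-7 at 24 h, MT-ND2 and MT-RNR1 drop between cycling and senescent cells, and both rRNAs stand higher with GNF-7 than with vehicle at each time.

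GNF-7 for 6 h in senescent cells raised 10 of the 32 tested genes and lowered none, against 39.3% called over all genes, 17.9% higher and 21.4% lower. At an unadjusted p under 0.05 none of the 32 was lower either. The 10 were both rRNAs, the mRNAs MT-ND1, MT-CO1 and MT-ND4, and the tRNAs MT-TF, MT-TL1, MT-TW, MT-TK and MT-TH, all heavy-strand genes. MT-TK had 0, 4 and 0 counts with vehicle and 6, 13 and 6 with GNF-7, too few for a fold change to carry weight. Counts were also low for MT-TW, at 14, 35 and 17 against 46, 44 and 58, and for MT-TH, at 15, 21 and 12 against 24, 55 and 40. MT-RNR2 went from 9181, 10606 and 9953 CPM with vehicle to 15165, 17660.3 and 15843 CPM with GNF-7, a log2 fold change of 0.71 (edgeR, SE 0.12, adjusted p = 0.000745). MT-RNR1 went from 1142, 1282 and 1206 to 1564, 1855 and 1675 CPM, 0.49 (edgeR, SE 0.12, adjusted p = 0.00888). Neither rRNA overlapped between the groups.

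The mRNA changes at 6 h were smaller. MT-ND1 gave 0.35 (edgeR, SE 0.13, adjusted p = 0.047), MT-CO1 0.29 (edgeR adjusted p = 0.0357) and MT-ND4 0.28 (edgeR adjusted p = 0.0487) on the log2 scale. The other 9 heavy-strand mRNAs lay between 0.01 and 0.27 and did not pass. MT-ND6 stood at 457, 439.6 and 503 CPM with vehicle and 358, 439 and 415 CPM with GNF-7, groups that lie next to each other with hardly a gap, with a log2 fold change of -0.21 (edgeR adjusted p = 0.313). The fit over all 15 libraries did not call it, while a fit on the groups of this comparison alone did (adjusted p = 0.031). The count of 10 was 4 without replicate 1 or 3 of senescent vehicle at 6 h, 3 without replicate 2 of GNF-7 at 6 h, and 6 without replicate 3 of GNF-7 at 6 h or with no filter on low counts. The calls of MT-ND1 and MT-ND4 were lost whichever of the 6 libraries was left out (highest adjusted p = 0.145 and 0.149), those of MT-CO1 and MT-TL1 without replicate 1 or 3 of senescent vehicle at 6 h or replicate 2 or 3 of GNF-7 at 6 h (0.117 and 0.11), and that of MT-TF without replicate 1 or 3 of senescent vehicle at 6 h or replicate 2 of GNF-7 at 6 h (0.115), while those of MT-RNR1 and MT-RNR2 held in all of these fits.

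Within the mitochondrial counts at 6 h, 4 genes gained and 1 lost share, where 36.4% of all genes passed, 5.46% higher and 31.0% lower. MT-RNR2 rose from 8.56, 8.94 and 8.93% to 12.1, 12.1 and 12.1%, a log2 fold change of 0.46 (edgeR, SE 0.14, adjusted p = 0.00503). The other 3 were the tRNAs MT-TH, MT-TK and MT-TW, all of low count. MT-ND6 fell from 0.426, 0.370 and 0.452% to 0.286, 0.300 and 0.317%, a log2 fold change of -0.47 (edgeR, SE 0.13, adjusted p = 0.00284). MT-RNR1, at 1.08 ± 0.00922% and 1.27 ± 0.0152% (SD, n = 3), did not pass (0.23, edgeR adjusted p = 0.163), although its 2 groups of libraries did not overlap. The count of 4 was 1 without replicate 1 or 3 of senescent vehicle at 6 h, and 2 without replicate 2 of GNF-7 at 6 h, and the count of 1 was 2 without replicate 3 of GNF-7 at 6 h. The calls of MT-RNR2 and MT-ND6 held in all of these.

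GNF-7 for 24 h in senescent cells raised 17 of the 32 tested genes and lowered 1, where 58.9% of all genes passed, 29.3% higher and 29.7% lower. Both rRNAs, 6 mRNAs and 9 tRNAs rose, and MT-ND6 fell. The rRNAs rose more than any mRNA. MT-RNR2 went from 11790.5, 15009.7 and 13284 CPM with vehicle to 28877, 31628 and 29726 CPM with GNF-7, a log2 fold change of 1.17 (edgeR, SE 0.12, adjusted p = 7.2e-06). MT-RNR1 went from 1403, 1737 and 1527 to 3155, 3543 and 3319 CPM, 1.10 (edgeR, SE 0.12, adjusted p = 1.34e-05). Every GNF-7 library was above every vehicle library for both.

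The 6 mRNAs that rose at 24 h were all of complexes I and IV. MT-ND1, whose gene lies just after the rRNAs and MT-TL1, went from 5397, 7151 and 6348 to 9949, 10543 and 10262 CPM, a log2 fold change of 0.70 (edgeR, SE 0.13, adjusted p = 0.000562). MT-ND4L gave 0.54 (edgeR adjusted p = 0.000914), MT-CO1 0.50 (edgeR adjusted p = 0.00102), MT-ND4 0.47 (edgeR adjusted p = 0.00201), MT-ND5 0.40 (edgeR adjusted p = 0.00802) and MT-ND3 0.39 (edgeR adjusted p = 0.0255). MT-ND2, MT-CO2, MT-ATP8, MT-ATP6, MT-CO3 and MT-CYB did not pass, with log2 fold changes from -0.08 to 0.25. Of 15 fits with another setting or a library left out, MT-CO2 was called higher in 6 and MT-CYB, of complex III, in 1. MT-ATP6 stood at 10164, 12916 and 11799 CPM with vehicle and 10676, 11335 and 10893 CPM with GNF-7, so the GNF-7 libraries lay within the range of the vehicle libraries. The call of MT-ND3 was lost without replicate 1 or 3 of senescent vehicle at 24 h, without replicate 2 or 3 of GNF-7 at 24 h (highest adjusted p = 0.101) and with no filter on low counts (0.0637).

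MT-ND6 was the only tested gene called lower at 24 h. It stood at 557, 666 and 543 CPM with vehicle and 435, 421 and 428 CPM with GNF-7, with every GNF-7 library below every vehicle library. The log2 fold change was -0.46 (edgeR, SE 0.15, adjusted p = 0.0204). The call was lost without replicate 2 of senescent vehicle at 24 h (0.0785), without replicate 2 of GNF-7 at 24 h (0.0558) and with a filter at a mean of 5 CPM (0.0542). Its fall as a share of the mitochondrial counts, from 0.360, 0.342 and 0.308% to 0.191, 0.172 and 0.182%, held in every fit run, with a log2 fold change of -0.89 (edgeR, SE 0.13, adjusted p = 2.23e-10).

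Within the mitochondrial counts at 24 h, 9 genes gained and 9 lost share, where 58.7% of all genes passed, 9.80% higher and 48.9% lower. MT-RNR2 went from 7.63, 7.71 and 7.55% to 12.7, 12.9 and 12.6%, a log2 fold change of 0.74 (edgeR, SE 0.14, adjusted p = 4.99e-07). MT-RNR1 went from 0.907, 0.893 and 0.868% to 1.38, 1.45 and 1.41%, 0.67 (edgeR, SE 0.14, adjusted p = 3.15e-06). The other 7 gains were tRNAs. The losses were MT-ND6, MT-ND2, MT-ATP8, MT-ATP6, MT-CO3 and the tRNAs MT-TC, MT-TE, MT-TP and MT-TQ.

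Among the mRNAs, that of the ATP synthase lost the most share after MT-ND6. MT-ATP6 went from 6.58, 6.64 and 6.71% to 4.68, 4.63 and 4.63% of the mitochondrial counts, -0.52 (edgeR, SE 0.14, adjusted p = 0.000488), and MT-ATP8 gave -0.47 (edgeR adjusted p = 0.00131). MT-CO3, the next gene on the same strand, gave -0.33 (edgeR adjusted p = 0.0294) and MT-ND2 -0.33 (edgeR adjusted p = 0.0276). The calls of MT-CO3 and MT-ND2 were lost without replicate 3 of senescent vehicle at 24 h or any 1 of the GNF-7 24 h libraries (highest adjusted p = 0.0772 and 0.0817) and with the 13 mRNAs as the denominator (0.126 and 0.121). The count of 9 losses was 5 without replicate 1 of GNF-7 at 24 h.

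**Figure D3:**
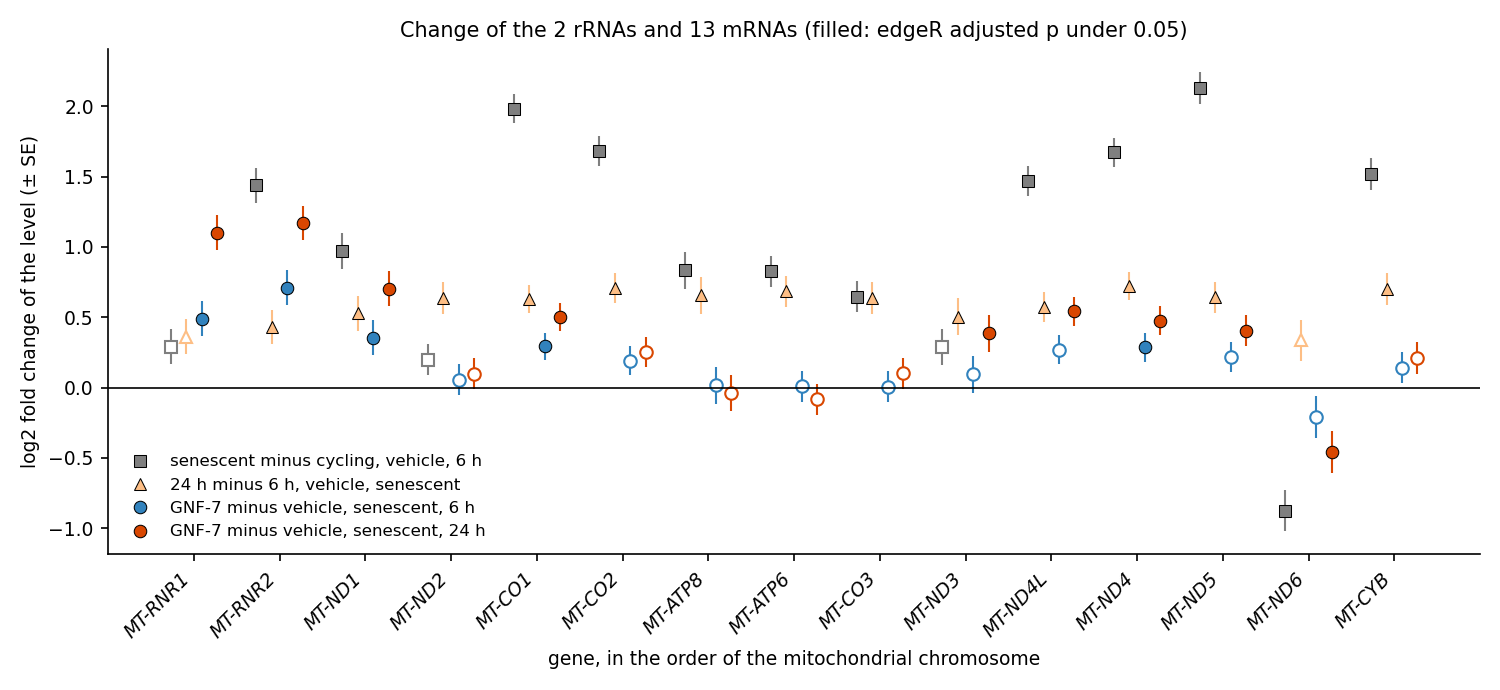
Log2 fold changes of the levels of the 2 rRNAs and 13 mRNAs, with genes in chromosome order, for 4 comparisons. Bars are SE from the edgeR fit, and filled symbols passed at an adjusted p under 0.05. The grey squares range from -0.88 to 2.13 between cycling and senescent cells, while the 24 h against 6 h vehicle triangles lie between 0.34 and 0.72 and the GNF-7 circles are highest at the rRNAs.

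The effect of GNF-7 at 24 h was set against that at 6 h with an interaction term. It was larger at 24 h for 5 of the 32 genes and smaller for none, where 30.8% of all genes passed, 12.8% higher and 18.0% lower. At an unadjusted p under 0.05 as well, none was smaller. The 5 were MT-RNR1, with a log2 difference of 0.61 (edgeR, SE 0.17, adjusted p = 0.0209), and the tRNAs MT-TF, MT-TL1, MT-TM and MT-TT. MT-RNR2 gave 0.46 (edgeR adjusted p = 0.0686) and did not pass in the main test, but passed with DESeq2 (adjusted p = 0.0393), limma voom (0.031), a filter at a mean of 5 CPM (0.0402), the groups of the comparison alone (0.0326) and without replicate 2 of senescent vehicle at 24 h (0.0388). None of the 13 mRNAs passed, with log2 differences from -0.25 to 0.35.

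The interaction calls rest on few libraries, except that of MT-TF. The count of 5 was 1 without replicate 2 of senescent vehicle at 6 h, replicate 1 of GNF-7 at 6 h, replicate 1 of senescent vehicle at 24 h or replicate 2 of GNF-7 at 24 h, and each of those 4 also ended the call of MT-RNR1 (highest adjusted p = 0.0542). It was 2 without replicate 3 of senescent vehicle at 24 h and 3 without replicate 3 of senescent vehicle at 6 h, replicate 2 or 3 of GNF-7 at 6 h or replicate 3 of GNF-7 at 24 h, and also 3 with no filter on low counts or with scaling without the mitochondrial genes. Without replicate 2 of senescent vehicle at 6 h, 1 gene was called smaller.

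Vehicle alone for 24 h against 6 h in senescent cells compares groups that did not receive the drug, and is called time in vehicle here. The groups are different samples. Time in vehicle cannot be told apart from any other difference between them, such as time since senescence was induced. The level of 13 of the 32 tested genes was higher and none lower, where 18.5% of all genes passed, 9.26% higher and 9.29% lower. At an unadjusted p under 0.05 none was lower either, although 1 was called lower by edgeR without replicate 2 of senescent vehicle at 24 h. The 13 were the 12 heavy-strand mRNAs and MT-RNR2. The mRNAs rose by similar amounts, from 0.50 ± 0.13 (SE) for MT-ND3 to 0.72 ± 0.10 for MT-ND4 on the log2 scale. MT-CO2, for example, went from 13328, 14782 and 13828 to 20077, 25276 and 23069 CPM, 0.71 (edgeR, SE 0.11, adjusted p = 0.000801).

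MT-ND2 and MT-ND3, which had not passed in senescence, were higher at 24 h than at 6 h of vehicle. MT-ND2 went from 4753, 5191 and 4969 to 6849.9, 8527 and 7819 CPM, a log2 fold change of 0.64 (edgeR, SE 0.11, adjusted p = 0.00225). MT-ND6 gave 0.34 (edgeR adjusted p = 0.162) and MT-RNR1 0.36 (edgeR adjusted p = 0.0704), neither of which passed, and MT-RNR2 gave 0.43 (edgeR adjusted p = 0.0323). The calls of MT-ND3 and MT-RNR2 were lost without replicate 1 or 3 of senescent vehicle at 6 h or replicate 2 or 3 of senescent vehicle at 24 h (highest adjusted p = 0.0762 and 0.113), and that of MT-ND1 without replicate 1 or 3 of senescent vehicle at 6 h or replicate 2 of senescent vehicle at 24 h (0.0552). Within the mitochondrial counts, 11 genes lost share and none gained, where 71.2% of all genes passed, 0.124% higher and 71.0% lower. MT-ND6 (-0.30, edgeR adjusted p = 0.0333) and 10 tRNAs made up the 11, and the other mRNAs lay between -0.13 and 0.08. The call of MT-ND6 was lost without replicate 1 or 3 of senescent vehicle at 6 h or replicate 3 of senescent vehicle at 24 h (highest adjusted p = 0.167), and the count of 11 was 7 without replicate 2 of senescent vehicle at 6 h or replicate 3 of senescent vehicle at 24 h.

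Ratios between neighbouring or paired genes show how closely the libraries of a group kept to each other. These ratios, other than that of MT-ND6, were chosen after their values were seen, so they are given as descriptions. MT-RNR2 to MT-RNR1 was 3.70 ± 0.0469 (SD, n = 3) in cycling cells, 8.19 ± 0.131 and 8.58 ± 0.155 in senescent vehicle cells at 6 h and 24 h, and 9.56 ± 0.122 and 9.01 ± 0.123 with GNF-7. MT-CO1 to MT-ND2 was 1.42 ± 0.0529 in cycling cells, 4.89 ± 0.0634 and 4.86 ± 0.0444 with vehicle and 5.77 ± 0.0878 and 6.43 ± 0.0818 with GNF-7. The vehicle groups at 6 h and 24 h overlapped in this ratio and differed by -0.0235 (exact permutation p = 0.7), whereas the GNF-7 groups lay above both.

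MT-ND6 as a percentage of the 13 mRNAs was lower in every senescent group than in cycling cells, and lower with GNF-7 than with vehicle at each time. It was 2.09 ± 0.222% in cycling cells, 0.462 ± 0.0459% with vehicle and 0.348 ± 0.0178% with GNF-7 at 6 h, and 0.369 ± 0.0291% with vehicle and 0.211 ± 0.0107% with GNF-7 at 24 h. The log2 ratio of MT-ND6 to the 12 heavy-strand mRNAs moved by -0.409 with GNF-7 at 6 h and by -0.803 at 24 h, with no overlap of the groups in either (exact permutation p = 0.1, the smallest possible). The difference between these 2 effects was -0.394, and the interaction on the share of MT-ND6 gave -0.43 (edgeR adjusted p = 0.111), which did not pass.

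**Figure D4:**
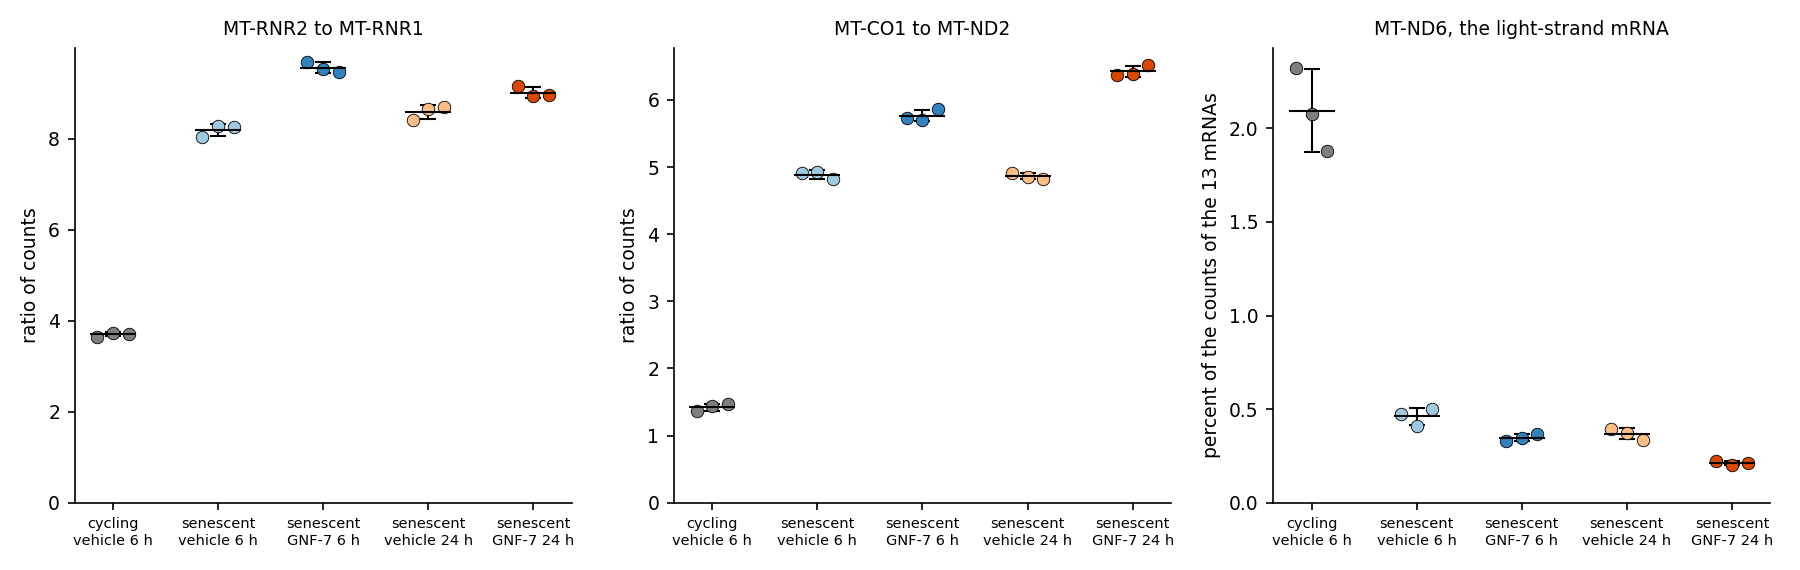
Ratio of MT-RNR2 to MT-RNR1 counts (left), ratio of MT-CO1 to MT-ND2 counts (middle) and MT-ND6 as a percentage of the counts of the 13 mRNAs (right), by group. Points are libraries, and bars are the mean and SD of 3. Libraries of a group sit close together, and the cycling group stands apart from all 4 senescent groups in each panel, at 3.70, 1.42 and 2.09%.

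Summed by respiratory complex, the mRNA pool shifted from complexes I and V to complexes III and IV between cycling and senescent cells. The genes of a complex did not all move together. In complex IV, MT-CO3 lost share of the mitochondrial counts while MT-CO1 and MT-CO2 gained. In complex I, MT-ND1, MT-ND2, MT-ND3 and MT-ND6 lost share while MT-ND4 and MT-ND5 gained. Complex IV mRNAs, which encode cytochrome c oxidase, went from 40.9 ± 0.462% to 47.2 ± 0.213% of the 13 mRNAs (SD, n = 3). Complex I, the NADH dehydrogenase with 7 mitochondrial genes, went from 39.2 ± 0.368% to 35.5 ± 0.0868%, complex V, the ATP synthase, from 12.8 ± 0.0856% to 9.11 ± 0.186%, and complex III from 7.11 ± 0.0141% to 8.17 ± 0.0409%. No complex overlapped between these groups (exact permutation p = 0.1 each, the smallest possible).

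With GNF-7 the differences were smaller, and those of complexes I and III ran against the direction seen in senescence. Complex I went to 36.6 ± 0.274% at 6 h, and from 35.3 ± 0.119% with vehicle to 37.9 ± 0.114% with GNF-7 at 24 h. Complex III went to 7.86 ± 0.0417% at 6 h, and from 8.40 ± 0.0888% to 7.68 ± 0.0577% at 24 h. Complex V went on falling, to 7.99 ± 0.113% at 6 h, and from 9.22 ± 0.0744% to 6.92 ± 0.106% at 24 h. The groups did not overlap in these 6 pairs (exact permutation p = 0.1 each). Complex IV went from 47.2% to 47.6% at 6 h, also without overlap (exact permutation p = 0.1) and in the direction seen in senescence, and stood at 47.0% and 47.5% at 24 h, which overlapped (exact permutation p = 0.2).

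Levels per kilobase of gene allow for gene length but not for how well each RNA was captured. On this scale MT-CO3 led the mRNAs in cycling cells at 7767 ± 1143 CPM per kb (SD, n = 3), followed by MT-CO2 at 6371 ± 853. The spreads of these neighbours in the order overlapped between libraries, which does not compare them within a library. In senescent vehicle cells at 6 h MT-CO2 led at 20438 ± 1079.9 CPM per kb, ahead of MT-CO1 at 15759 ± 758, and both kept these places with GNF-7 at 24 h, at 39730.2 ± 1681 and 34509.8 ± 1191. The lowest mRNA was MT-ND5 in cycling cells, at 740.5 ± 105 CPM per kb, and MT-ND6 in all 4 senescent groups, at 889 ± 62.9, 769 ± 78.6, 1121 ± 129 and 815 ± 13.9. The rRNAs, which are among the most abundant RNAs of the organelle, stood below several mRNAs per kb in these poly(A)-captured libraries: MT-RNR2 was at 2348 ± 381 CPM per kb in cycling cells and 19293 ± 904 with GNF-7 at 24 h.

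The 22 tRNAs were counted at low levels, with summed counts from 2000 in cycling replicate 2 to 6559 in replicate 2 of GNF-7 at 24 h. The 5 that were not tested were MT-TN, MT-TG, MT-TR, MT-TS2 and MT-TL2, with at most 16 counts in a library. MT-TL1, a leucine tRNA that directly follows MT-RNR2, took the largest part of the tRNA counts, 19.6 ± 1.10% (SD, n = 3) in cycling cells and 35.2 ± 1.40%, 40.4 ± 0.980%, 33.4 ± 2.36% and 45.4 ± 1.42% in the senescent groups. Of the tRNAs, MT-TL1, MT-TT and MT-TD rose in senescence and again with GNF-7 at 24 h. MT-TL1 and MT-TT, a threonine tRNA that directly follows MT-CYB, are printed as those with the most counts. Both are shown whole, in lower case.
MT-TL1, chrM:3230-3304, plus strand: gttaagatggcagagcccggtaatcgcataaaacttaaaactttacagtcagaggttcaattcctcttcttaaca
MT-TT, chrM:15888-15953, plus strand: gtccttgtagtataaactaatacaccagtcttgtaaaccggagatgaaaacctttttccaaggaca
The first base of MT-TT, 15888, is the next after the last encoded base of MT-CYB shown above. A short tRNA count in such a library may come from the mature tRNA or from a longer RNA that still holds it, and these are not separated by the counts.

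MT-TL1 stood at 19.5, 13.5 and 16.1 CPM in cycling and 29.4, 37.1 and 32.4 CPM in senescent vehicle libraries at 6 h, a log2 fold change of 1.02 (edgeR, SE 0.20, adjusted p = 0.000762). It was at 41.0, 52.9 and 50.4 CPM with GNF-7 at 6 h (0.54, edgeR adjusted p = 0.0309) and went from 28.6, 42.6 and 37.1 with vehicle to 73.4, 93.6 and 91.9 CPM with GNF-7 at 24 h (1.26, edgeR adjusted p = 6.02e-05). No groups overlapped in these 3 comparisons. As a share of the mitochondrial counts, however, MT-TL1 was called lower in senescence. That call was lost when any 1 of 4 libraries was left out (edgeR, highest adjusted p = 0.139). MT-TT stood at 3.78, 2.03 and 2.61 CPM in cycling and 9.50, 15.2 and 11.6 CPM in senescent vehicle libraries at 6 h, a log2 fold change of 2.13 (edgeR, SE 0.30, adjusted p = 6.35e-05). At 24 h it went from 7.85, 14.2 and 12.1 to 25.9, 31.0 and 31.6 CPM with GNF-7 (1.38, edgeR adjusted p = 0.000292), again without overlap.

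The next most counted tRNAs, MT-TP for proline and MT-TQ for glutamine, are light-strand genes and passed in none of the 5 comparisons of levels. In cycling cells MT-TP stood at 8.05 ± 2.53 CPM (SD, n = 3), against 9.87 ± 2.31, 9.94 ± 3.03, 17.3 ± 6.67 and 14.3 ± 1.92 in the senescent groups in the order vehicle and GNF-7 at 6 h, then vehicle and GNF-7 at 24 h. MT-TQ stood at 8.90 ± 0.591 and then 9.98 ± 1.46, 9.31 ± 1.46, 14.5 ± 4.89 and 12.5 ± 2.77. The spread within groups was wide for both.

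MT-TF, the phenylalanine tRNA at the start of the heavy-strand transcript, fell in senescence and rose with GNF-7. It stood at 8.45, 6.33 and 5.22 CPM in cycling, 2.15, 3.09 and 2.39 CPM in senescent vehicle and 3.60, 4.28 and 3.25 CPM in GNF-7 libraries at 6 h, and at 1.79, 1.97 and 2.36 and 5.31, 8.28 and 7.34 CPM with vehicle and GNF-7 at 24 h. The log2 fold changes were -1.37 (edgeR adjusted p = 1.25e-09) in senescence, 0.54 (edgeR adjusted p = 0.0194) with GNF-7 at 6 h and 1.78 (edgeR adjusted p = 2.4e-12) at 24 h. MT-TF and the tRNAs in the next sentence are named after their values were seen. The other tRNAs called in senescence were MT-TD, which was higher, and MT-TK, MT-TM, MT-TS1, MT-TV, MT-TW and MT-TY, which were lower. MT-TK had 7, 12 and 4 counts in the cycling libraries and 0, 4 and 0 in the senescent vehicle libraries at 6 h, too few for a fold change to carry weight.

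Counted by strand, the genes that GNF-7 raised were all heavy-strand genes. At 24 h, 17 of the 24 tested heavy-strand genes rose and none fell, while of the 8 tested light-strand genes, MT-ND6 and 7 tRNAs, none rose and 1 fell. At 6 h the counts were 10 of 24 and 0 of 8. In the vehicle comparison over time they were 13 of 24 and 0 of 8, and in senescence 14 of 24 heavy-strand genes rose and 5 fell, against 0 and 3 of 8 light-strand genes. Over all genes, 29.3% were called higher and 29.7% lower with GNF-7 at 24 h, and 17.9% and 21.4% at 6 h. With time in vehicle these shares were 9.26% and 9.29%, and in senescence 35.6% and 34.4%. Low counts limit the calls of tRNAs, which are 7 of the 8 light-strand and 10 of the 24 heavy-strand genes tested. Leaving out replicate 2 of senescent vehicle at 24 h brought 1 light-strand gene over the threshold as higher with GNF-7 at 24 h. The summed level of the heavy-strand tRNAs went from 45.7, 71.0 and 61.4 to 121, 159 and 152 CPM with GNF-7 at 24 h and that of the light-strand tRNAs from 36.1, 67.5 and 45.7 to 39.8, 54.0 and 44.6 CPM, the first without and the second with overlap (exact permutation p = 0.1 and 0.8).

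Nuclear copies of mitochondrial genes can take reads from them. Of 404 such annotated copies, 83 had any count. The copy MTATP6P1 on chromosome 1 held counts equal to 9.42 ± 0.139% of those of MT-ATP6 in cycling cells (SD, n = 3) and 8.85 ± 0.107% to 9.35 ± 0.290% in the senescent groups. MTND2P28 held 2.23% to 2.61% of MT-ND2, and MTCO1P12 0.116% to 0.126% of MT-CO1. These values count only the reads placed on the copies. Reads dropped for mapping to several places would be in neither count, and their treatment is not given in the sources used here. The values therefore do not bound the uncertainty of the mitochondrial levels.

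Most nuclear genes that serve mitochondrial RNA were lower in senescence. Of 45 genes that transcribe, copy, process or stabilise mitochondrial nucleic acids, all tested, 7 were called higher and 32 lower in senescent than in cycling cells, with a median log2 fold change of -0.42. Over all genes 35.6% were called higher and 34.4% lower, with a median of 0.06. TFAM, which packages mitochondrial DNA and starts its transcription, went from 146 ± 5.19 to 58.1 ± 1.61 CPM (SD, n = 3), a log2 fold change of -1.33 (edgeR, SE 0.05, adjusted p = 4.86e-34). LRPPRC and SLIRP, which together protect mitochondrial mRNAs, gave -0.77 (edgeR adjusted p = 4.52e-27) and -0.73 (edgeR adjusted p = 1.4e-17). TFB2M, the other initiation factor, gave -0.77, the poly(A) polymerase MTPAP -0.59, the degrading enzymes PNPT1 and SUPV3L1 -0.89 and -0.37, the DNA polymerase POLG -0.46 and the helicase TWNK -0.35, all with edgeR adjusted p of 1.33e-07 or less. The mitochondrial RNA polymerase POLRMT (0.08, edgeR adjusted p = 0.112) and the elongation factor TEFM (-0.11, edgeR adjusted p = 0.303) did not pass. Higher were RRM2B, a p53-controlled ribonucleotide reductase subunit (0.86, edgeR adjusted p = 3.16e-29), and the coactivator PPARGC1A, from 1.80 ± 0.368 to 4.62 ± 0.565 CPM (1.37, edgeR adjusted p = 2.76e-10).

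With GNF-7 the same list held 9 called higher and 16 lower at 6 h (median -0.08), where 17.9% of all genes were called higher and 21.4% lower (median 0.01). At 24 h it held 10 higher and 19 lower (median -0.10), where 29.3% of all genes were called higher and 29.7% lower (median 0.04). Of its 6 RNA-processing genes, 5 fell at 6 h and all 6 at 24 h. Among them ELAC2, which cuts the 3′ ends of tRNAs out of the long transcripts, went from 125 ± 4.37 to 98.2 ± 2.17 CPM at 6 h (-0.35, edgeR adjusted p = 9.39e-11) and from 122 ± 2.21 to 70.1 ± 1.52 CPM at 24 h (-0.79, edgeR adjusted p = 1.54e-25), and its interaction was -0.45 (edgeR adjusted p = 4.02e-09). PDE12, another of these 6 processing genes, which trims poly(A) from mitochondrial RNA, gave -0.78 (edgeR adjusted p = 6.99e-19) at 24 h. Of the stability genes, FASTKD5, needed to process transcripts that no tRNA delimits, gave -0.65 (edgeR adjusted p = 3.88e-11) at 6 h.

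Other members of the list rose with GNF-7. SUPV3L1, the helicase of the mitochondrial degradosome, went from 29.1 ± 0.988 to 42.8 ± 0.971 CPM at 6 h (0.55, edgeR adjusted p = 2.49e-12) and from 27.6 ± 0.694 to 43.3 ± 0.294 CPM at 24 h (0.65, edgeR adjusted p = 3.09e-15), while its partner PNPT1 gave -0.13 (edgeR adjusted p = 0.0453) and -0.34 (edgeR adjusted p = 2.94e-07). The first PNPT1 call was lost under 3 other scalings (adjusted p from 0.0556 to 0.0779). PPARGC1A gave 1.07 (edgeR adjusted p = 4e-09) at 6 h and 0.64 (edgeR adjusted p = 0.00029) at 24 h. POLRMT fell at both times (-0.33, edgeR adjusted p = 4.71e-08 and -0.32, edgeR adjusted p = 3.48e-08), TEFM at 6 h (-0.44, edgeR adjusted p = 0.000268) and not at 24 h (-0.21, edgeR adjusted p = 0.0759). TFAM gave -0.08 (edgeR adjusted p = 0.228) and -0.36 (edgeR adjusted p = 1.7e-08) and TFB2M -0.16 (edgeR adjusted p = 0.0683) and -0.61 (edgeR adjusted p = 8.43e-11), with interactions of -0.28 (edgeR adjusted p = 0.00155) and -0.45 (edgeR adjusted p = 0.00026). LRPPRC gave 0.15 (edgeR adjusted p = 0.00138) and -0.04 (edgeR adjusted p = 0.377), and SLIRP 0.02 (edgeR adjusted p = 0.862) and -0.23 (edgeR adjusted p = 0.000552).

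For the remaining named genes, MTPAP, POLG and TWNK gave -0.38 (edgeR adjusted p = 1.29e-05), -0.37 (edgeR adjusted p = 1.26e-09) and -0.18 (edgeR adjusted p = 0.00219) with GNF-7 at 24 h, and -0.06 (edgeR adjusted p = 0.577), -0.25 (edgeR adjusted p = 1.26e-05) and -0.09 (edgeR adjusted p = 0.152) at 6 h. NRF1, a transcription factor of nuclear mitochondrial genes, had an interaction of 0.66 (edgeR adjusted p = 7.04e-05). Of all 45 genes the interaction was called positive for 6 and negative for 11, where 12.8% of all genes were called positive and 18.0% negative. Between 6 h and 24 h of vehicle, where 9.26% of all genes were called higher and 9.29% lower, 2 of the 45 were higher and 7 lower, among them LRPPRC (-0.22, edgeR adjusted p = 1.95e-05), POLRMT (-0.22, edgeR adjusted p = 0.000322) and FASTKD1 (-0.27, edgeR adjusted p = 0.00182). With total counts as the scale, on which the median of all genes was -0.10, those counts were 0 and 22. The count of 2 was 0 without replicate 2 of senescent vehicle at 6 h or replicate 1 or 3 of senescent vehicle at 24 h, and 1 without replicate 3 of senescent vehicle at 6 h or replicate 2 of senescent vehicle at 24 h.

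Of 77 listed nuclear subunits of complexes I, III, IV and V, 75 were tested. In senescence 3 were called higher and 56 lower, with a median log2 fold change of -0.28, against 35.6% and 34.4% of all genes, while 10 of the 13 mitochondrial subunits rose. The 3 were NDUFA7, ATP5PD and DMAC2L, named after their values were seen. ATP5F1A and NDUFAB1, of complexes V and I, had the smallest p, with -0.61 (edgeR adjusted p = 4.59e-23) and -0.79 (edgeR adjusted p = 5.37e-22). The count of 3 was 1 without replicate 3 of senescent vehicle at 6 h and 11 with total counts as the scale, on which the median of all genes was 0.19.

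GNF-7 lowered 40 and raised none of the 75 at 6 h (median -0.14), where 21.4% of all genes were called lower and 17.9% higher. It lowered 59 and raised 1, DMAC2L, at 24 h (median -0.27), where 29.7% of all genes were called lower and 29.3% higher. ATP5MC1 and ATP5MC3, which encode subunit c of the ATP synthase ring, had the lowest log2 fold changes of the 75 at both times. ATP5MC3 went from 146 ± 2.20 to 99.1 ± 2.80 CPM at 6 h (-0.56, edgeR adjusted p = 3.09e-18) and from 149.5 ± 5.11 to 80.9 ± 4.21 CPM at 24 h (-0.89, edgeR adjusted p = 6.83e-28), and ATP5MC1 gave -0.60 (edgeR adjusted p = 4.31e-11) at 6 h. ATP5F1B, of the catalytic head, went from 639 ± 6.73 to 427 ± 4.82 CPM at 24 h (-0.58, edgeR adjusted p = 2.24e-23), with an interaction of -0.42 (edgeR adjusted p = 4.14e-11), and ATP5F1C had one of -0.47 (edgeR adjusted p = 8.29e-09). The interaction was called negative for 32 and positive for none, where 18.0% of all genes were called negative and 12.8% positive. The count of 40 was 24 without replicate 2 of GNF-7 at 6 h, and DMAC2L was not called without replicate 1 or 2 of senescent vehicle at 24 h or replicate 3 of GNF-7 at 24 h.

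In the same comparisons the mitochondrial subunits of complex V, MT-ATP8 and MT-ATP6, had log2 fold changes between -0.08 and 0.01, and those of complexes I, III and IV other than MT-ND6 lay at or above 0.01. Vehicle for 24 h against 6 h is the only one of the 4 comparisons of groups in which both sets moved up: 30 nuclear subunits were called higher and none lower, with a median of 0.12, against 9.26% and 9.29% of all genes, led by UQCRB (0.22, edgeR adjusted p = 6.41e-05) and NDUFA1 (0.28, edgeR adjusted p = 7.05e-05). With total counts as the scale those counts were 3 and 4, and the call of UQCRB was lost (adjusted p = 0.0547), whereas the 12 heavy-strand mRNAs kept their direction. These comparisons share libraries, so their counts are given side by side and not as independent evidence.

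**Figure D5:**
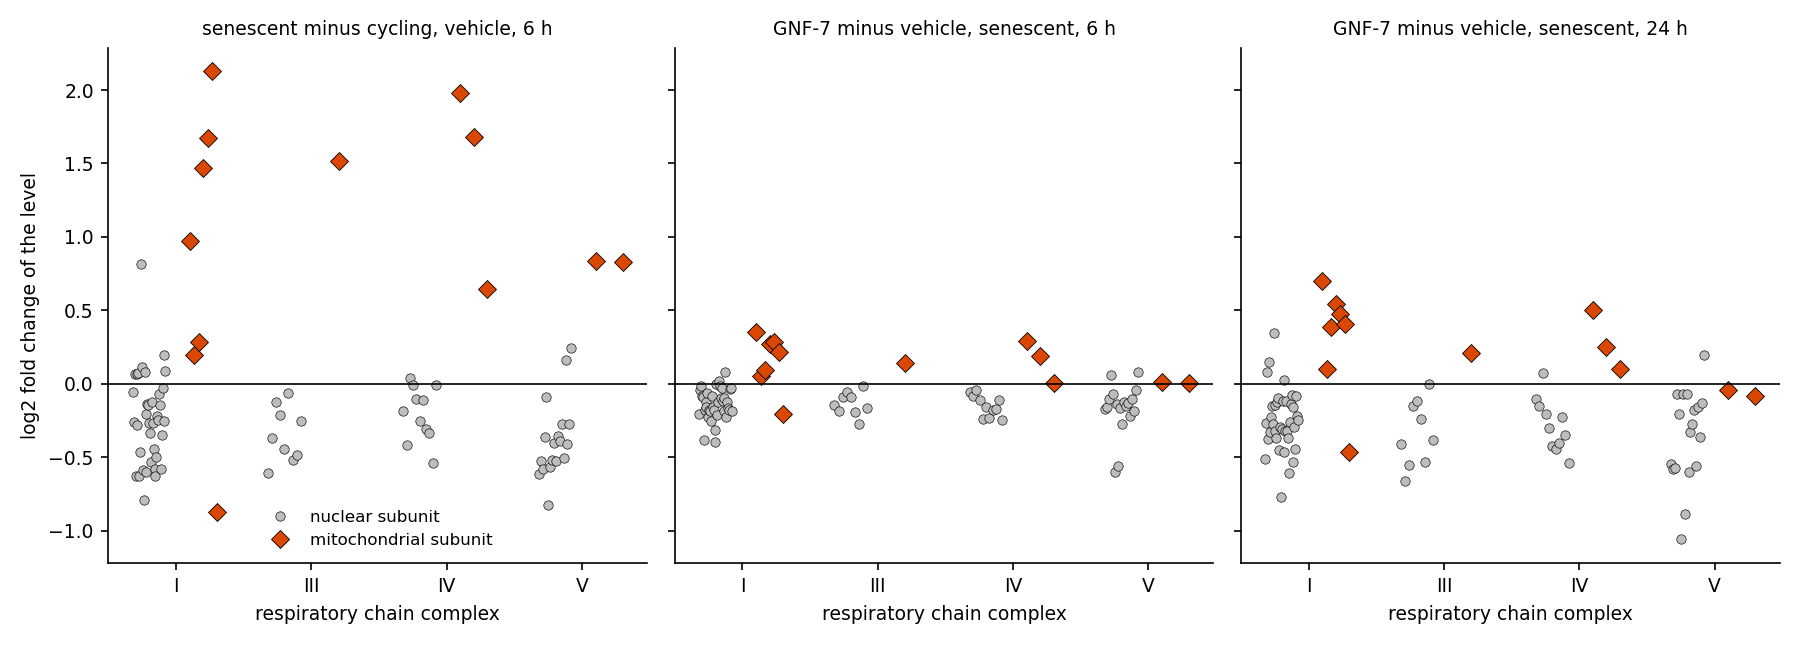
Log2 fold change of the level of each nuclear subunit (grey circles, 75 genes) and each mitochondrial subunit (orange diamonds, 13 genes) of respiratory complexes I, III, IV and V, for senescent against cycling cells (left) and GNF-7 against vehicle at 6 h (middle) and 24 h (right). Most grey circles lie below 0 in all 3 panels and most diamonds above it, with MT-ND6 the lowest diamond at -0.88, -0.21 and -0.46.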

How the data were processed

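RNA-seq was measured in 15 HT-1080 libraries, 3 per group. The authors deposited 1 table of raw read counts per gene, with no normalization. Per the submitters' processing notes, bcl2fastq 2.20.0.422, STAR 2.7.9a, featureCounts 1.5.1 and GRCh38 were used; the annotation release, the strand setting and the treatment of reads that map to several places are not given in the sources used here. Of 60673 rows, 3 with a broken entry were left out, which hold at most 0.00543% of a library. Gene names came from a table of identifiers that matched 99.55% of rows, and sequences from GENCODE transcripts on GRCh38.

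Counts were fitted with edgeR 4.0.16 (R 4.3.3) by its quasi-likelihood test over all 15 libraries with 1 coefficient per group and TMM scaling, after edgeR's filter on low counts, which left 18563 genes. p-values were adjusted by Benjamini-Hochberg over all of them, and an adjusted p under 0.05 was called. A second fit used each library's mitochondrial total as its size, so that fold changes are of shares within the mitochondrial counts. Single summed values were compared by two-sided exact permutation tests with scipy 1.17.1. CPM per kb used the annotated gene length. The fits were tested on simulated data.

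Alternatives were other scalings, DESeq2 1.42.0, limma 3.58.1 with voom, other filters, other denominators, a replicate block and each library left out. The labels do not say what a replicate number shares. For vehicle and GNF-7 at 24 h, the deviations of same-numbered libraries from their group means correlated at 0.160, 0.129 and 0.103, so by the threshold of 0.1 the numbers pair these libraries, a hint from the data alone; in the other comparisons not every pair passed it. Text values cover all mRNAs and rRNAs, the 4 tRNAs with the highest mean count, 12 fixed genes of mitochondrial nucleic acid expression plus the 3 of that list with the smallest p per comparison, and the 2 nuclear subunits with the smallest p. The members and lists were chosen with earlier results of these data known. Library totals of 25991007 to 32323393 counts set the precision, and counts of reads without molecular identifiers cover counting error only.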

Additional observations from a re-analysis of the deposited data

Results flagged for a closer look

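GNF-7 changed the level of 5 mitochondrial genes by different amounts at 24 h and 6 h, by edgeR's interaction term at an adjusted p under 0.05. Across all genes tested, 30.8% passed, 12.8% higher and 18.0% lower. The log2 difference was 0.613 for MT-RNR1, 1.24 for MT-TF, 0.72 for MT-TL1, 0.823 for MT-TM and 0.966 for MT-TT, each larger at 24 h. The same held for the share of 4 tRNAs within the mitochondrial counts, where 14.8% of all genes passed, 2.53% higher and 12.3% lower. Those log2 differences were 1.05 for MT-TF, 0.852 for MT-TV, 0.541 for MT-TL1 and 0.788 for MT-TT. MT-TF stood at 1.79, 1.97 and 2.36 CPM with vehicle and 5.31, 8.28 and 7.34 CPM with GNF-7 at 24 h, against 2.15, 3.09 and 2.39 and 3.60, 4.28 and 3.25 CPM at 6 h, so the groups at 24 h are far apart. Both of its differences held with every library left out in turn. That of MT-TL1 in level was lost without any of 9 of the 12 libraries (highest adjusted p = 0.119), that of MT-TT without 9 (0.116) and that of MT-TM without 6 (0.126). Among the shares, MT-TL1 was lost without 7 of the 12 (0.124), MT-TV without 4 (0.127) and MT-TT without 1, senescent vehicle 6 h replicate 2 (0.0613).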

How the results depend on the processing

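Of the called mitochondrial genes, MT-RNR1, MT-RNR2, MT-ND6 and the named list genes in every comparison, and all tested mitochondrial genes in senescence, 962 of the values recomputed under another setting kept their direction and side of the threshold, 35 lost the call and 18 gained one; with a library left out these were 696, 104 and 4. Of the other mitochondrial genes, none of them called, 6 of 14 changed sign of the level difference in some setting with GNF-7 at 6 h, 4 of 8 at 24 h, 6 of 15 in the difference of the effects and 3 of 7 with time in vehicle. With a filter at a mean of 5 CPM, which drops most tRNAs, 2 mitochondrial genes were lower in senescence and 0 lower with GNF-7 at 24 h; in shares, 13 were lower in senescence, 1 higher and 2 lower with GNF-7 at 6 h, 5 higher at 24 h and 6 lower with time in vehicle. With no filter, 6 were higher with GNF-7 at 6 h, 3 had a larger effect at 24 h than at 6 h, 1 was lower with time in vehicle, and 7 had a lower share with time. With only the groups of a comparison, 1 gene was lower with GNF-7 at 6 h, 1 lower with time in vehicle, and in shares 2 were lower at 6 h and 1 in the difference of the effects. With the 13 mRNAs as the denominator, 5 shares were lower with GNF-7 at 24 h. With TMM factors computed without the mitochondrial genes, 3 genes had a larger effect at 24 h, 0 nuclear subunits were higher with GNF-7 at 24 h (also 0 with RLE size factors), 1 nuclear subunit was lower with time and 1 gene of the mitochondrial nucleic acid list was higher with time. Total counts as the scale shifted the all-gene median, from 0.06 to 0.19 in senescence and from 0.01 to -0.10 with time in vehicle. On it, 11 nuclear subunits were higher in senescence, 3 were higher and 4 lower with time, and 0 list genes were higher and 22 lower with time. The log2 rRNA to mRNA ratio differed by -0.0572 in senescence, and by 0.1217, the other direction, with MT-RNR2 alone; the difference of the GNF-7 effects on it was 0.4683 with MT-RNR1 alone, against 0.331. Other than the changes that fewer genes or samples make by construction, the cause was not tested.

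With each library left out in turn, the number of mitochondrial genes called lower with GNF-7 at 24 h ranged from 0 to 1, called higher at 6 h from 3 to 8, with a larger effect at 24 h from 1 to 7 and a smaller one from 0 to 1, and called lower with time in vehicle from 0 to 1. In shares, those lower with GNF-7 at 24 h ranged from 5 to 8, higher at 6 h from 1 to 4, lower at 6 h from 1 to 2, with a larger effect at 24 h from 2 to 4, higher with time from 0 to 1 and lower with time from 7 to 12. List genes higher with time ranged from 0 to 2, nuclear subunits higher with GNF-7 at 24 h from 0 to 1, lower at 6 h from 24 to 42 and higher in senescence from 1 to 3. The difference of the GNF-7 effects on complex IV ranged from -0.02852 to 0.2542 percentage points and reversed, at -0.02852, without senescent vehicle 24 h replicate 2.

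Of 30 same-numbered pairs of libraries, 13 had deviations that correlated above 0.1 (range -0.145 to 0.271), against 4 of 60 with different numbers. With a replicate block no call was lost in GNF-7 against vehicle at 24 h, where the numbers pair the libraries, and no count of calls named above for the mitochondrial genes moved by over 1.5 times: 7 were higher and 0 lower with GNF-7 at 6 h. Of the light-strand genes, 1 was higher with time in vehicle under the block, against 0 without it. Calls lost under the block were MT-ND1 (adjusted p = 0.0658), MT-CO1 (0.0508) and MT-ND4 (0.069) with GNF-7 at 6 h, MT-RNR2 with time in vehicle (0.05) and the share of MT-TL1 in the difference of the effects (0.0503). Low counts limit the tRNAs: 5 were not tested, and MT-TK had no more than 12 counts in a cycling library.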

Other observations

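MTCO1P40, an annotated processed copy of MT-CO1 on chromosome 17, did not follow MT-CO1. It had 61, 13 and 45 counts in the cycling libraries and 1129, 44 and 21 in senescent vehicle libraries at 6 h. It had 34, 18 and 69 counts with GNF-7 at 6 h, 53, 29 and 200 with vehicle at 24 h and 58, 325 and 1798 with GNF-7 at 24 h. The highest counts, 1129 and 1798, came from replicate 1 of senescent vehicle at 6 h and replicate 3 of GNF-7 at 24 h. MTCO1P40 was chosen after its values were seen.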
